A study of Mus musculus with 12 samples.

Results

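Transcripts of 6 DNA mismatch repair genes, Msh6, Msh3, Pms2, Mlh3, Pms1 and Exo1, were followed in colonic mucosa of mice. They were taken by gene symbol, as 6 of the 38087 genes with an Ensembl identifier in the deposited count files, and each of the 6 was found once in all 12 libraries. The study asked how chromosome instability affects the colon. It compared 6 libraries from wild type mice with 6 from Sgo1-/+ mice, which lack 1 copy of Sgo1, the gene for shugoshin, a protector of sister chromatid cohesion at the centromere. Both groups had received the colon carcinogen azoxymethane at 4 mg/kg, given 2 times weekly when they were 8 to 12 weeks old, and the tissue was taken at 9 months of age, so the treatment is shared and no untreated mice were analysed here. The labels do not say that each library came from a separate mouse, so p-values measure the spread between these libraries, which may be technical in part. The labels also do not give the strain, the sex or the way in which the Sgo1 allele was made.

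Mismatch repair corrects bases that DNA polymerase has misincorporated and small loops left by slippage in repeats. MutS heterodimers find the error: Msh6 is the subunit of the dimer that reads single mismatches and very short loops, and Msh3 that of the dimer that reads larger loops. MutL heterodimers act next: Pms2 carries the nicking activity of the main dimer, Mlh3 belongs to a dimer best known for meiotic crossing over, and Pms1 to a dimer whose role in repair is less clear. Exo1, an exonuclease, then removes the marked strand before resynthesis. In the intestine, loss of this pathway is known for microsatellite instability and tumours. Azoxymethane gives methylated guanines, which mispair with thymine and are read by the Msh6-containing dimer unless the methyltransferase Mgmt has removed the methyl group.

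Upstream sequences are shown for 3 members, because these genes have different start regions and some share theirs with a neighbour. The RefSeq promoter table of build GRCm38.p6 (mm10) held 5 of the 6 members, and Exo1 was not matched. The windows of 4 of them, Msh6, Pms2, Pms1 and Mlh3, were used. Capitals mark CCAAT boxes (spelled as named) and GC boxes (GGGCGG). Both strands were searched, so a match on the other strand appears as its reverse complement. E2F letters (TTTNNCGC with C or G at each N) were searched as well. The Msh6 line is the 250 bases before its start (chr17:87974800-87975049, plus strand). The Pms2 line is the 116 bases between the GENCODE M21 starts of Aimp2 and Pms2 (chr5:143909848-143909963, plus strand). The RefSeq start of Pms2 lies further on, at chr5:143910001, so this window does not reach it. The Pms1 line is the 66 bases between the RefSeq start of Pms1 and Ormdl1 (chr1:53297029-53297094, minus strand).
Msh6: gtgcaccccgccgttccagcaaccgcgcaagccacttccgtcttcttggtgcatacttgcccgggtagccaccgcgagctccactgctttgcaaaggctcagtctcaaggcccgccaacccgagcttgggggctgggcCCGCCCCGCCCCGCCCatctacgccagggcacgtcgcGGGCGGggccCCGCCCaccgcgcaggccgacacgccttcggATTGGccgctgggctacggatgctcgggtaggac
Pms2: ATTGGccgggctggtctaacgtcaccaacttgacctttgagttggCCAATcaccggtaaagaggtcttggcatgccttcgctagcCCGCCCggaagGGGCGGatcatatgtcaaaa
Pms1: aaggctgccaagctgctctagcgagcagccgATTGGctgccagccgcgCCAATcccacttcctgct
The Msh6 window held 5 GC boxes, 3 of which run into one another, sharing a base at each join, and 1 CCAAT box that begins 34 bases before the start. Its GC content was 70.8%, against a median of 52.4% over 32851 RefSeq promoters, and 1.93% of those promoters held 5 or more GC boxes. The window between Pms2 and Aimp2 held 2 GC boxes and 2 CCAAT boxes, and that between Pms1 and Ormdl1 held 2 opposed CCAAT boxes. Over promoters cut to the same length, CCAAT occurred in 20.8% at 116 bases and in 12.3% at 66 bases, and GGGCGG in 26.2% at 116 bases. The full 250-base windows of Mlh3, at 2 RefSeq starts, held 1 CCAAT box and no GC box, which compares with 33.8% and 32.7% of promoters that hold each. TATA letters (TATAAA), present in 12.4% of promoters, and E2F letters, present in 1.86%, were in none of the windows of these 4 members. These are matches of letters only.

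Libraries held from 5414437 to 9937114 counts assigned to genes, and the members rested on between 1 and 260.2 counts in a library. Levels below are CPM, a gene's count relative to a library size scaled by the TMM method of edgeR, and changes are log2 ratios of Sgo1-/+ to wild type from edgeR's quasi-likelihood test with Benjamini-Hochberg adjustment over 13889 genes. In 3 libraries, wild type replicates 3 and 5 and Sgo1-/+ replicate 3, the rows Gm13340, Gm13341 and Gm11410, which resemble mitochondrial sequence, took 37.4% to 38.8% of counts, and in the other 9 libraries 10.4% to 22.3%. Epithelial markers were abundant in every library, with 10 of 10 found and a summed level of 6932 to 9757 CPM in wild type and 7700 to 9044 CPM in Sgo1-/+. Markers of B and plasma cells (5 of 7 found) summed to 30.0 to 72.7 CPM and 18.2 to 41.8 CPM, those of germinal centre B cells (5 of 5) to 12.6 to 32.1 CPM and 12.8 to 20.5 CPM, and those of T and NK cells (8 of 8) to 14.1 to 28.8 CPM and 10.5 to 18.9 CPM. Myeloid, smooth muscle, fibroblast and endothelial lists stayed at or below 42.7 CPM in all libraries, while adipocyte markers reached 164.6 CPM and neuronal and glial markers 67.1 CPM in single libraries. No marker found was at 0 in all libraries, and the part of these cells in the values below was not tested. In bulk tissue, fewer cells of a type and less RNA per cell cannot be told apart.

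The targeted gene, listed as Sgol1, was measured at 1.48, 3.49 and 6.77 CPM as the lowest, median and highest of the 6 wild type libraries, and at 1.83, 2.37 and 2.76 CPM in Sgo1-/+. The groups overlapped, and the lowest of the 12 levels was that of wild type replicate 1. Its log2 change was -0.67 ± 0.31 (SE), which did not pass edgeR's quasi-likelihood test (unadjusted p = 0.0483, adjusted p = 0.517). By an exact two-sided permutation test over the 12 libraries, the difference in mean log2 CPM was -0.49 (p = 0.126). This transcript therefore neither separated the genotype labels nor went against them.

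No member changed at an adjusted p of 0.05, where 0 of the 13889 genes tested did (0.0%). At an unadjusted p of 0.05, 1 of 6 members, Msh6, was past the threshold on the higher side, against 4.56% of all genes on that side, 5.08% on the lower side and 9.65% on either. In 4 of 6 members the log2 change was above 0, as it was for 49.0% of all genes. The median over the members was 0.09, and that over all genes was -0.01. DESeq2, which called 30 genes (0.216%), called none of the members. In no member were the groups separate, as they were in 0.346% of all genes. The plot of levels by library shows this overlap.

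**Figure D1:**
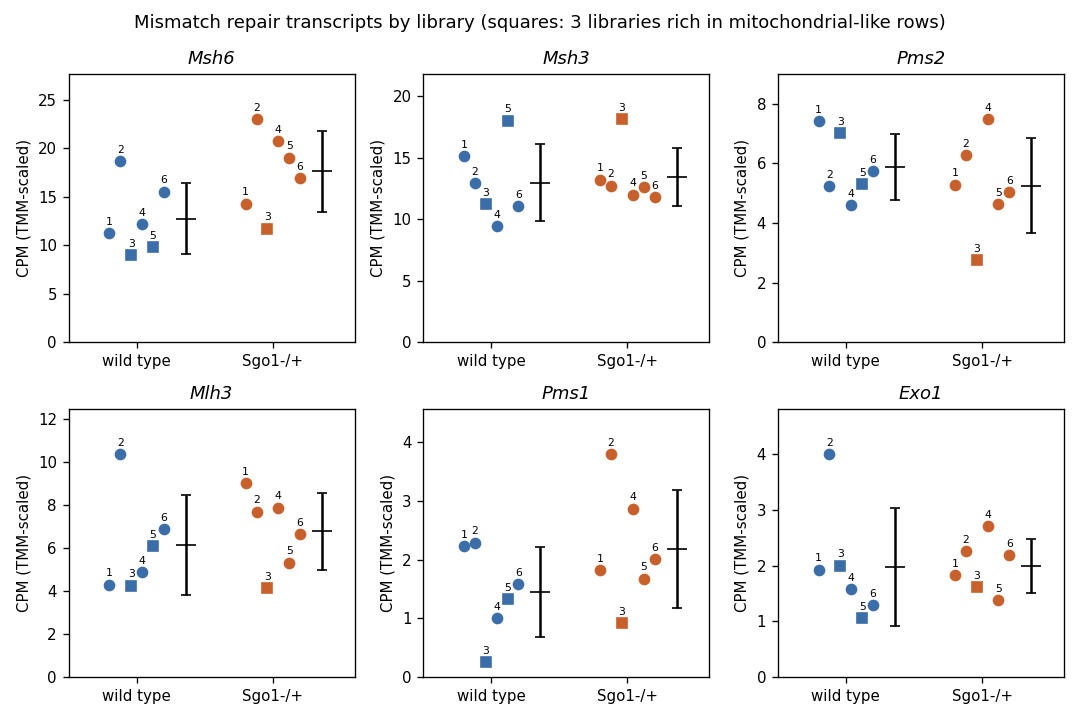
Level of each mismatch repair transcript in CPM (y axis, linear from 0, scaled by TMM) in 6 wild type (blue) and 6 Sgo1-/+ (orange) libraries, numbered by replicate, with the mean and SD of each group as a black bar. Squares mark the 3 libraries in which mitochondrial-like rows took 37.4% to 38.8% of counts. The groups overlap in all 6 panels, and Msh6 has the smallest unadjusted p (0.0431, edgeR).

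Per length of exon, Msh6 was the most abundant of the 6 transcripts. Its mean was 3.49 ± 1.04 CPM per kb (SD, n = 12), followed by Msh3 at 1.17 ± 0.237, Mlh3 at 0.856 ± 0.267, Pms2 at 0.685 ± 0.166, Pms1 at 0.241 ± 0.124 and Exo1 at 0.236 ± 0.0930. Msh6 stood above Msh3 in 12 of 12 libraries, by a median of 3.48 times and a range of 1.41 to 4.68 times. The next steps were smaller: Msh3 exceeded Mlh3 in 10 of 12 libraries and Mlh3 exceeded Pms2 in 10 of 12, with median ratios of 1.25 and 1.26. Pms2 was above Pms1 in 12 of 12 libraries, by a median of 2.74 times. Pms1 and Exo1 could not be ordered, since Pms1 was the higher in 8 of 12 libraries and their means differed by less than the spread of either. Lengths are those of all exons merged in GENCODE M21, from 4.35 kb for Msh6 to 11.3 kb for Msh3. A transcript that uses only part of these exons would have a higher level per kb than given here. The deposited Exo1 entry, chr1:175880778-175911396, lies inside its GENCODE M21 gene, chr1:175880581-175913489, whose exons gave the length. Reads outside the entry may be left out of the Exo1 count, so its level per kb may be too low beside that of Pms1. The place of Msh6 above Msh3 depends on these lengths, since in CPM not divided by length Msh6 was the higher in 8 of 12 libraries.

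**Figure D2:**
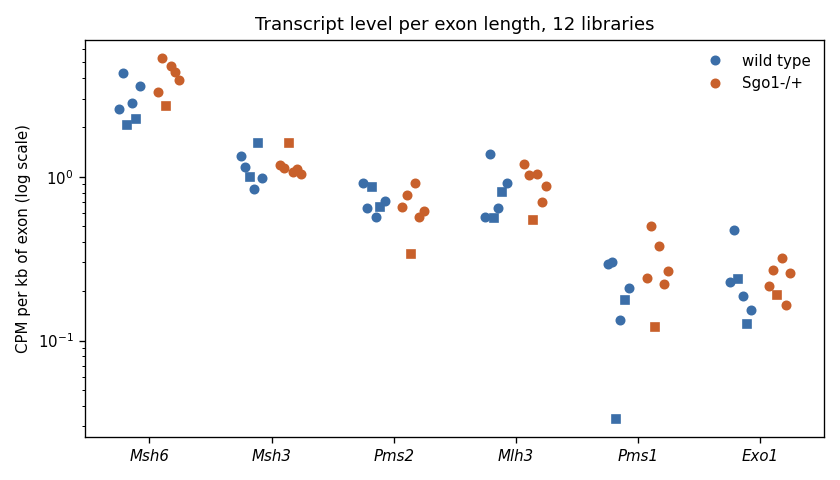
CPM per kb of merged exon (y axis, log scale) of the 6 transcripts in the 12 libraries, blue for wild type and orange for Sgo1-/+, squares for the 3 libraries rich in mitochondrial-like rows. Msh6 lies highest, with a mean of 3.49 CPM per kb, and Pms1 and Exo1 lowest, with means of 0.241 and 0.236. The length used for Exo1 includes bases outside its deposited entry. The lowest point, Pms1 in wild type replicate 3, rests on 1 count.

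Of the MutS subunits, Msh6 was the only member with a nominal difference. Msh6 (ENSMUSG00000005370, chr17:87975050-87990883, plus strand, mm10) was at 9.005, 11.7 and 18.7 CPM as the lowest, median and highest of the wild type libraries. In Sgo1-/+ these values were 11.7, 18.0 and 23.01 CPM. The lowest level of each group was in a library rich in mitochondrial-like rows, namely wild type replicate 3 and Sgo1-/+ replicate 3. The 3 highest of the 12 levels were in Sgo1-/+ replicates 2, 4 and 5, and wild type replicate 2 came next. Group means were 12.7 ± 3.69 CPM and 17.6 ± 4.17 CPM (SD, n = 6 each). The fitted log2 change was 0.46 ± 0.21 (SE), a ratio of 1.38 with a 95% interval of 1.01 to 1.87. In edgeR the p was 0.0431 before and 0.510 after adjustment, so the difference did not pass the test. Over 23 alternatives in scaling, tool, covariates and libraries, the Msh6 change kept its direction in 23, was at an unadjusted p under 0.05 in 10, and had adjusted p-values from 0.177, without Sgo1-/+ replicate 3, to 0.985, in the libraries without a name suffix. With the share of mitochondrial-like rows as a covariate the log2 change of Msh6 was 0.25 ± 0.19, and without the 3 libraries rich in those rows it was 0.38 ± 0.19. Msh6 was at 9.005 to 11.7 CPM in the 3 rich libraries and at 11.3 to 23.01 CPM in the other 9. Over all 12 libraries Msh6 had a Pearson r of -0.75 with the log2 share (permutation p = 0.00617, adjusted 0.0370 over 6 members). Its Spearman rho was -0.71 (permutation p = 0.012, adjusted 0.036). Since the 3 stand apart, these values include the gap between them and the other 9. Among the 9 Msh6 had a Pearson r of -0.38 with the log2 share (permutation p = 0.301, adjusted 0.612 over 6 members). The Spearman rho there was -0.40 (permutation p = 0.291, adjusted 0.504).

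Msh6 lies on the same chromosome as the targeted locus, with 34.3 Mb between Sgol1 and Msh6. Its last bases overlap the end of the opposed gene Fbxo11, a subunit of a ubiquitin ligase, by 34 bases in GENCODE M21. Fbxo11 was at 55.2 ± 6.501 (wild type) and 59.2 ± 9.53 CPM (Sgo1-/+) (SD, n = 6 each), with a log2 change of 0.10 ± 0.12. The sources used here do not state whether counting used the strand, so reads in those 34 bases cannot be assigned to one or the other gene.

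Msh3 (ENSMUSG00000014850, chr13:92211881-92355003, minus strand) had nearly the same level in both groups. Its lowest, median and highest values were 9.47, 12.1 and 18.0 CPM in wild type and 11.8, 12.7 and 18.2 CPM in Sgo1-/+. A library rich in mitochondrial-like rows held the highest Msh3 level of each group, wild type replicate 5 and Sgo1-/+ replicate 3. The other 5 Sgo1-/+ libraries lay between 11.8 and 13.2 CPM. In wild type replicate 3, also rich in those rows and the lowest wild type library for Msh6, Msh3 was at 11.3 CPM, below the wild type median. The log2 change of Msh3 was 0.05 ± 0.17, with a 95% interval from -0.33 to 0.42 and an adjusted p of 0.947 in edgeR. As a ratio of Sgo1-/+ to wild type the interval, before adjustment for multiple tests, ran from 0.799 to 1.33. Differences within it are compatible with these libraries, and it is not a limit of detection. The predicted gene Gm20379, which overlaps Msh3, was not analysed here.

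Within a library, the count of Msh6 relative to that of Msh3 does not depend on scaling. Per length of exon this ratio was 1.42, 2.70 and 3.73 as the lowest, median and highest in wild type and 1.68, 3.80 and 4.67 in Sgo1-/+. The groups overlapped. The log2 ratio was higher in Sgo1-/+ by 0.41 on average (exact two-sided permutation p = 0.234, adjusted 0.234 over 4 ratios).

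Of the MutL subunits, Pms2 and Mlh3 showed no difference beyond the spread of libraries. Pms2 (ENSMUSG00000079109, chr5:143909964-143937309, plus strand) was at 4.59, 5.53 and 7.42 CPM as the lowest, median and highest in wild type and at 2.76, 5.15 and 7.48 CPM in Sgo1-/+. Its lowest level was in Sgo1-/+ replicate 3, a library rich in mitochondrial-like rows, where it rests on 12.0 counts. The log2 change of Pms2 was -0.15 ± 0.22, with a 95% interval from -0.63 to 0.33 and an adjusted p of 0.841 in edgeR. Without the 3 libraries rich in mitochondrial-like rows it was 0.02, which turns the sign. The Pms2 row of the files ends 3341 bases beyond the end in GENCODE M21, at the end of the overlapping predicted gene Gm42421, which was not analysed here. Reads from that stretch may thus be part of the Pms2 count, and the length used for its level per kb leaves the stretch out.

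Pms2 starts 117 bases from the opposed gene Aimp2, a scaffold of the aminoacyl-tRNA synthetase complex. Aimp2 was at 5.28 ± 1.74 (wild type) and 5.90 ± 1.52 CPM (Sgo1-/+), with a log2 change of 0.17 ± 0.24. Pms2 and Aimp2 had a Pearson r of 0.22 (permutation p = 0.481, adjusted 0.481 over 2 neighbour pairs) and a Spearman rho of -0.21 (permutation p = 0.512, adjusted 0.512) over 12 libraries. Without the 2 libraries farthest from the median r was -0.38, so that no common course of this pair was seen. Rsph10b, a radial spoke gene whose start overlaps the end of Pms2, was near the detection limit, at 0.268 (wild type) and 0.118 CPM (Sgo1-/+) on average. The antisense gene Gm17135, which covers 11392 bases of Pms2, had no count in any library.

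Mlh3 (ENSMUSG00000021245, chr12:85234529-85270591, minus strand) was at 4.25, 5.49 and 10.4 CPM as the lowest, median and highest in wild type. In Sgo1-/+ it was at 4.14, 7.19 and 9.02 CPM. The highest level was in wild type replicate 2 and the lowest in Sgo1-/+ replicate 3, so the extremes ran against the order of the medians. Its log2 change was 0.14 ± 0.25, with a 95% interval from -0.41 to 0.69 and an adjusted p of 0.873 in edgeR. Leaving out wild type replicate 2 moved the Mlh3 change to 0.39, and the share of mitochondrial-like rows as a covariate turned it to -0.11. The microRNA gene Mir6938 and the pseudogene Gm46369, which lie within Mlh3, were not analysed here.

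Pms1 (ENSMUSG00000026098, chr1:53189187-53297018, minus strand) was the least counted member and had the highest fitted ratio. It was at 0.250, 1.45 and 2.29 CPM as the lowest, median and highest in wild type and at 0.919, 1.92 and 3.80 CPM in Sgo1-/+. The lowest level of each group came from replicate 3, a library rich in mitochondrial-like rows in both groups, with 1 count in wild type and 4 counts in Sgo1-/+. The log2 change of Pms1 was 0.55 ± 0.40, a ratio of 1.47 with a 95% interval of 0.810 to 2.66 and an adjusted p of 0.667 in edgeR. The direction was the same under 23 of 23 alternatives, none of which gave an unadjusted p under 0.05. The change was 0.90 in log2 CPM among the 4 wild type and 4 Sgo1-/+ libraries whose columns carry no name suffix and -0.03 among the 2 and 2 that do.

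The start of Pms1 lies 77 bases from that of the opposed gene Ormdl1, a regulator of sphingolipid synthesis. Ormdl1 was at 12.2 ± 3.25 (wild type) and 10.6 ± 2.81 CPM (Sgo1-/+), with a log2 change of -0.20 ± 0.22. Pms1 and Ormdl1 had a Pearson r of 0.48 (permutation p = 0.115, adjusted 0.230) and a Spearman rho of 0.24 (permutation p = 0.442, adjusted 0.512). Without the 2 farthest libraries r was -0.42. The predicted genes Gm28777 and Gm28778 beside Pms1 were not analysed here.

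The ratios among the MutL subunits showed the largest nominal difference among the 4 ratios computed. Per length of exon, Pms2 to Pms1 was 2.10, 3.37 and 17.7 as the lowest, median and highest in wild type and 1.52, 2.46 and 2.65 in Sgo1-/+. The highest value was that of wild type replicate 3, which has 1 Pms1 count. The log2 ratio was lower in Sgo1-/+ by an average difference of -0.86 (exact two-sided permutation p = 0.0195, adjusted 0.0779 over 4 ratios). Leaving out wild type replicate 3 brought this difference to -0.44 (exact permutation, adjusted p = 0.173). Leaving out wild type replicate 2 brought it to -1.05 (exact permutation, adjusted p = 0.00866). With any other single library left out, the adjusted p of this test was from 0.0779 (without wild type replicate 1) to 0.294 (without Sgo1-/+ replicate 2). The log2 ratio of Pms2 to Mlh3 differed by -0.38 between the groups (exact permutation p = 0.232, adjusted 0.234), with per-length medians of 0.844 in wild type and 0.730 in Sgo1-/+.

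Exo1 (ENSMUSG00000039748, chr1:175880778-175911396, plus strand), the exonuclease, had mean levels that differed by far less than the spread between libraries, at 1.98 ± 1.06 (wild type) and 2.00 ± 0.484 CPM (Sgo1-/+) (SD, n = 6 each). Its lowest, median and highest values were 1.06, 1.75 and 4.00 CPM in wild type and 1.38, 2.01 and 2.71 CPM in Sgo1-/+. Wild type replicate 2 stood above all other libraries. The log2 change of Exo1 was -0.02 ± 0.32, with a 95% interval from -0.71 to 0.67 and an adjusted p of 0.985 in edgeR. Without wild type replicate 2 the change was 0.37, with an adjusted p of 0.566. The log2 ratio of Exo1 to Msh6 was lower in Sgo1-/+ by an average difference of -0.39 (exact permutation p = 0.184, adjusted 0.234). The small nuclear RNA gene Gm23805, annotated within Exo1, had no count.

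**Figure D3:**
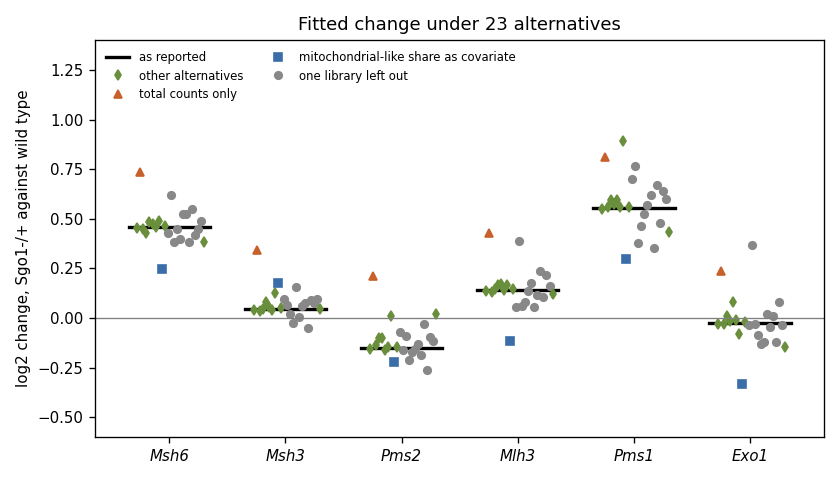
Fitted log2 change between Sgo1-/+ and wild type (y axis) for each member: black line as reported, and points for 23 alternatives, with total counts only (orange triangles), mitochondrial-like share as covariate (blue squares), 1 library left out (grey) and the others (green). Msh6 and Pms1 lie above 0 throughout, and the other 4 members have alternatives on both sides of 0.

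Scaling by total counts alone moved the median change of all 13889 genes to 0.31, so values under it are read relative to that shift. Relative to it the log2 changes were 0.42 for Msh6, 0.03 for Msh3, -0.10 for Pms2, 0.12 for Mlh3, 0.50 for Pms1 and -0.08 for Exo1. Each has the sign found with TMM scaling.

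Excision is followed by resynthesis, for which a list of 16 downstream genes was taken. It held the sliding clamp Pcna, its loader (Rfc1 to Rfc5), the single-strand binders Rpa1 to Rpa3 and DNA polymerase delta (Pold1 to Pold4). The ligase Lig1, the chromatin protein Hmgb1 and Ssbp1, the single-strand binder of mitochondria, were also on it. All 16 passed the filter on low counts. None changed at an adjusted p of 0.05 in edgeR. In 11 the log2 change was above 0 and in 5 below, where 49.0% of all genes were above 0. The median was 0.10, against -0.01 over all genes. At an unadjusted p of 0.05, 1 of 16 was higher, where 4.56% of all genes were, and 0 were lower, where 5.08% were.

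Rfc3, a clamp loader subunit, had the smallest p in the downstream list. It ranged from 1.25 to 5.04 CPM in wild type and from 3.68 to 7.29 CPM in Sgo1-/+, with overlap. Its log2 change was 0.62 ± 0.29 (unadjusted p = 0.0481, adjusted 0.517, edgeR). Subunits of polymerase delta went different ways. Pold2, its accessory subunit, was at 9.12 ± 4.19 (wild type) and 12.9 ± 1.603 CPM (Sgo1-/+) (log2 change 0.48 ± 0.25). Pold3, also an accessory subunit, was at 40.1 ± 6.85 CPM and 32.03 ± 8.65 CPM (log2 change -0.32 ± 0.17). Neither passed the test, with adjusted p-values of 0.543 and 0.557 in edgeR. Pcna was at 34.9 ± 7.14 CPM and 35.4 ± 10.2 CPM, a log2 change of 0.02 ± 0.21. Lig1, which seals the repaired strand, was at 12.3 ± 3.78 CPM and 15.3 ± 2.57 CPM, a log2 change of 0.31 ± 0.19.

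A further 7 genes with a tie to the pathway were the meiotic MutS homologues Msh4 and Msh5, the helicase genes Mcm8 and Mcm9, the nuclease Fan1, the histone methyltransferase Setd2 and Mgmt. Of these, 4 passed the filter, and Msh4, Msh5 and Mgmt did not. The 4 that passed had log2 changes above 0, as did 49.0% of all genes. Their median was 0.28, against -0.01 over all genes. None was past an unadjusted p of 0.05 in edgeR, where 9.65% of all genes were. Mgmt, which removes the methyl group that azoxymethane leaves on guanine, was low in both groups. It was at 0.999 ± 0.683 (wild type) and 0.828 ± 0.355 CPM (Sgo1-/+) (SD, n = 6 each), from 0.287 to 2.12 CPM and from 0.457 to 1.19 CPM. Mgmt was not tested in the main fit. With no filter on low counts its log2 change was -0.09 ± 0.49 (adjusted p = 0.947, edgeR). The plot of pathway changes places the members among these lists.

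**Figure D4:**
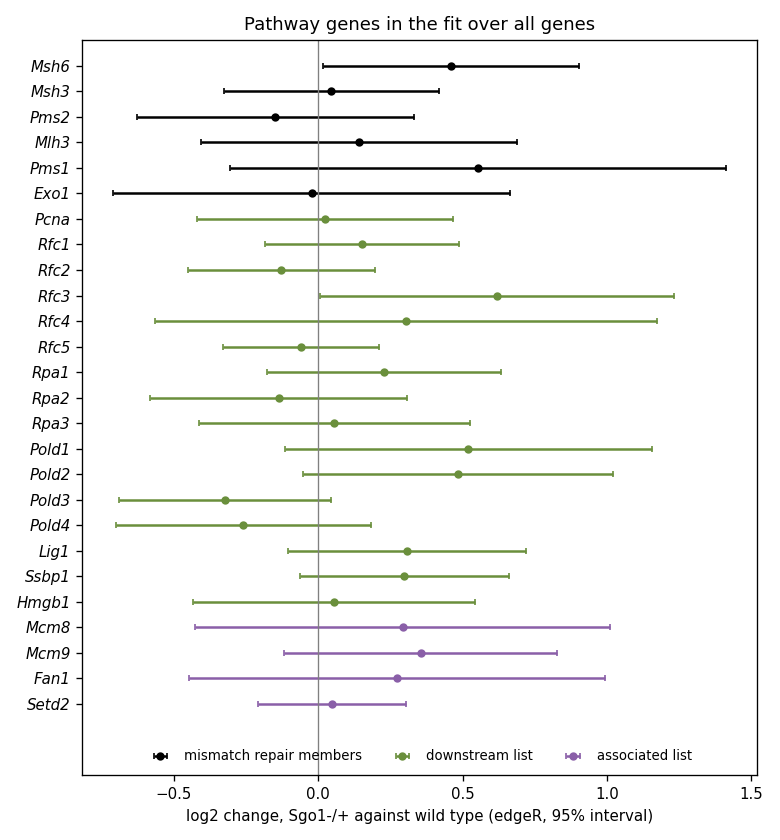
Log2 change between Sgo1-/+ and wild type (x axis) with its 95% interval from edgeR, for the 6 members (black), the 16 downstream genes (green) and the 4 associated genes that passed the filter (purple). The intervals of Msh6 and Rfc3 lie above 0 before adjustment for multiple tests, and all others include 0.

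Mismatch repair genes are commonly higher in dividing cells, so the members were set against 22 S phase genes (21 tested) and 16 mitosis genes. These lists were above 0 in 20 of 21 and 15 of 16 genes, with median log2 changes of 0.21 and 0.49, where 49.0% of all genes were above 0 with a median of -0.01. At an unadjusted p of 0.05, 1 of 21 S phase and 8 of 16 mitosis genes were higher, against 4.56% of all genes, and none passed the adjusted test in edgeR. Marker lists of other cells also had medians away from 0, at -0.54 over 6 tested T and NK cell markers and 2.17 over 3 tested adipocyte markers. The median was -0.47 over 3 tested germinal centre B cell markers and -1.34 over 2 tested neuronal and glial markers. The remaining marker lists had medians from -0.12 (B and plasma cells) to 0.21 (endothelium). The part of these cells in the values was not tested. Across the 12 libraries, 12 relations between a member and the mean log2 CPM of a list were computed, and none passed adjustment over the 12. Under 2 alternatives calls were gained: in the 8 libraries without a name suffix Mlh3 passed with S phase (r = 0.94, permutation, adjusted p = 0.00714) and mitosis (r = 0.88, permutation, adjusted p = 0.0420), and with total counts only all 12 relations passed.

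Msh6 and the mitosis list had a Pearson r of 0.74 (permutation p = 0.00862, adjusted 0.0634) and a Spearman rho of 0.66 (permutation p = 0.0223, adjusted 0.127). Without the 2 libraries farthest from the median of the list r was 0.79. It was 0.83 within wild type, 0.26 within Sgo1-/+, and 0.48 in the 9 libraries not rich in mitochondrial-like rows (permutation p = 0.190). Mlh3 and the mitosis list had r = 0.72 (permutation p = 0.0106, adjusted 0.0634) and rho = 0.65 (permutation p = 0.0250, adjusted 0.127). For Mlh3 r was 0.59 without the 2 farthest libraries, 0.79 within wild type, 0.74 within Sgo1-/+ and 0.67 in the 9 libraries (permutation p = 0.0536). Pms1 and Exo1 had r of 0.63 and 0.54 with mitosis, and Msh3 and Pms2 had -0.14 and -0.08. With the S phase list, r ran from -0.12 for Pms2 to 0.64 for Mlh3. The mitosis list itself fell with the share of mitochondrial-like rows, with r of -0.82 in the 9 libraries (permutation p = 0.012, adjusted 0.024 over 2 lists). The Spearman rho there was -0.70 (permutation p = 0.043, adjusted 0.076), which did not pass adjustment. The part of that share in these relations was not tested.

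**Figure D5:**
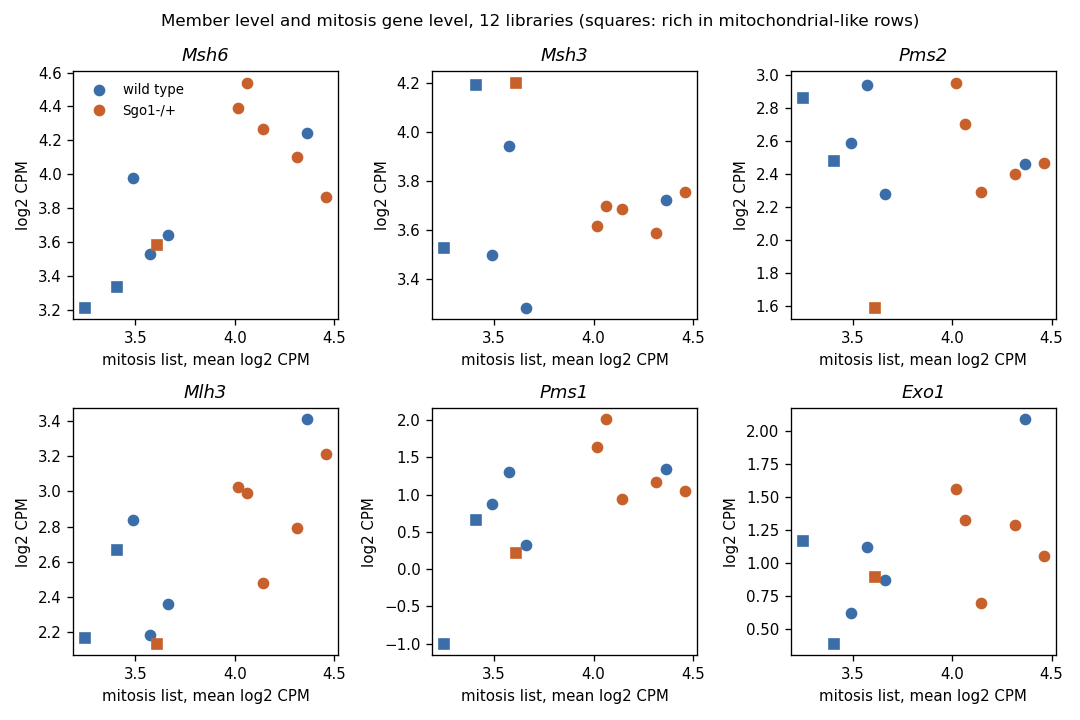
Log2 CPM of each member (y axis) against the mean log2 CPM of 16 mitosis genes (x axis) in 12 libraries, blue for wild type, orange for Sgo1-/+, squares for the 3 libraries rich in mitochondrial-like rows. Msh6 and Mlh3 have r of 0.74 and 0.72 over all libraries, and Msh3 and Pms2 have r of -0.14 and -0.08.

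Among the 15 pairs of members, the levels of Msh6 and Pms1 were most alike, with a Pearson r of 0.79 (permutation p = 0.00059, adjusted 0.00885) and a Spearman rho of 0.76 (permutation p = 0.00611, adjusted 0.0917). Without wild type replicate 3 and Sgo1-/+ replicate 2, the libraries farthest from the median, r was 0.64 (permutation p = 0.0502, adjusted 0.266). The pair thus did not pass adjustment without those libraries. Fewer libraries and a narrower range also weaken this test, so it cannot tell whether the call rests on them. In the 8 libraries without a name suffix r was 0.91 (adjusted p = 0.0141, permutation), and within the 6 Sgo1-/+ libraries it was 0.91 (exact permutation p = 0.0153). The 8 include wild type replicate 3 and Sgo1-/+ replicate 2, and the 6 include the latter. These values therefore do not test the relation without the farthest libraries. In the 9 libraries not rich in mitochondrial-like rows, r was 0.67 (adjusted p = 0.265, permutation). Both genes had low levels in the 3 rich libraries, with Pms1 at 0.250 to 1.33 CPM there and 1.00 to 3.80 CPM in the other 9, and the part of that share in this relation was not tested. Msh6 and Msh3, which take the same partner subunit, had r of -0.29, and Pms2 and Mlh3, which also share one, had r of 0.22. No pair other than Msh6 and Pms1 passed the adjusted test.

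The genes most like each member over the 12 libraries, by Pearson r of log2 CPM among 11204 genes averaging 20 counts or more, are given as a description only. For Msh6 these were Bco2 (r = 0.95), Pds5b (0.95), a cohesin regulator, and Smchd1 (0.93), a chromatin protein. For Msh3 they were Ccdc61 (0.94), Agtpbp1 (0.93) and Cacna1b (0.91). For Pms2 they were Raet1e, Hdac5 and Eif2d (each 0.86), and for Mlh3 they were Bcr (0.90), Cenpq (0.89), a centromere protein, and Rbm33 (0.87). Pms1 was most like Rnf139 (0.94), Rabgap1 (0.94) and Lphn2 (0.93), and Exo1 most like Zfp809 (0.88), Atf7ip (0.85) and Fer (0.84). No gene was among the 3 most alike of more than 1 member. Pms1 and Exo1 averaged 16.5 and 17.25 counts, so they were not among the genes compared and could not appear in these lists. Msh6, Msh3, Pms2 and Mlh3 were compared, and none of them was among the 3 most alike of another member.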

How the data were processed

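Messenger RNA of colonic mucosa from 12 mouse samples was sequenced on an Illumina MiSeq, per the labels' protocols. The raw column of each file holds, as the authors deposited them, estimated counts of reads for each gene, of which 69.6% of the values above 0 were not whole (compared exactly). A second column of deposited log2 values was not used. The submitters' processing notes name mm10 and DESeq. Aligner, counter and strand setting: not given in the sources used here. The counts were rounded, and 505 rows lacking an Ensembl identifier, which hold 1.79% to 5.40% of the counts in a library, were dropped. No libraries were identical, and replicates differed by a chi-square of at least 16.3 times its degrees of freedom.

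The groups are the genotypes in the labels. All genes were fitted with edgeR 4.0.16 in R 4.3.3 (glmQLFit, glmQLFTest, TMM factors, filterByExpr at its minimum count of 10 and total of 15), with Benjamini-Hochberg adjustment, a threshold of 0.05 and a prior count of 2 for log2 CPM. SE values are derived from the F statistic. The script was tested on simulated data. Ratios within a library (0.5 added to each count) and the Sgo1 level were compared by exact permutation of the genotype labels, and correlations by 100000 permutations (scipy 1.17.1). DESeq2 1.42.0, limma-voom (limma 3.58.1), other scalings, filters, covariates and library sets were alternatives. No pairing of samples by replicate number was assumed, and the number was used as a block in an alternative. Name suffixes in the column headers of 4 libraries (wild type replicates 1 and 6, Sgo1-/+ replicates 5 and 6) are not explained in the labels, and were used as an alternative split.

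Named genes are all members, Sgo1, the 3 genes with the smallest p of the downstream and associated lists, with Pcna, Lig1 and Mgmt, the 3 genes most alike to each member, and annotated neighbours (GENCODE M21), of which 1 is not reported here. The members and lists were chosen with earlier results of these data known. Setting aside the 3 libraries rich in mitochondrial-like rows was chosen after seeing the data.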

Additional observations from a re-analysis of the deposited data

Results flagged for a closer look

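Single libraries stood apart from the rest of their group in 4 of 22 groups of 6 values examined by Dixon's criterion, where chance gives about 1 in 20. Msh3 in Sgo1-/+ replicate 3 was at 18.2 CPM, above the other 5 libraries of that genotype, and this library is one of the 3 rich in mitochondrial-like rows. Exo1 in wild type replicate 2 was at 4.0 CPM, above the other 5 wild type libraries. The log2 count ratio of Pms2 to Pms1 was 4.25 in wild type replicate 3, the library with 1 Pms1 count, and 0.714 in Sgo1-/+ replicate 2, which had the highest Pms1 level of its group.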

How the results depend on the processing

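In all, 25 results were recomputed under 315 alternatives, and 281 kept their direction and their side of the threshold. The genes past the threshold numbered 30 with DESeq2 and 2 with the mitochondrial-like share as covariate, against 0 in edgeR, and none was a member. With total counts only, which moved the median of all genes to 0.31, the log2 changes of Pms2 and Exo1 were 0.21 and 0.24, or -0.10 and -0.08 relative to that median, so neither turned against the other genes. The log2 change of Pms2 turned to 0.012 in libraries without the suffix and 0.021 without the 3 libraries rich in mitochondrial-like rows. That of Mlh3 turned to -0.11 with this share as covariate, and that of Exo1 to 0.008 with limma-voom. Leaving out 1 library gave changes of -0.84 to -0.35 for Sgo1, 0.38 to 0.62 for Msh6, -0.052 to 0.158 for Msh3, -0.26 to -0.03 for Pms2, 0.06 to 0.39 for Mlh3, 0.35 to 0.77 for Pms1 and -0.13 to 0.37 for Exo1. It gave log2 ratio differences of 0.24 to 0.61 for Msh6 to Msh3, -0.57 to -0.22 for Pms2 to Mlh3, -1.05 to -0.44 for Pms2 to Pms1 and -0.55 to -0.26 for Exo1 to Msh6, and 0 genes past the threshold. With total counts only, which puts the same library scale into both sides of a correlation, r with the S phase list was 0.846 for Msh6, 0.783 for Msh3, 0.582 for Pms2, 0.872 for Mlh3, 0.797 for Pms1 and 0.794 for Exo1. With the mitosis list it was 0.914, 0.742, 0.634, 0.905, 0.833 and 0.814 in the same order, and all 12 relations passed adjustment. In the 8 libraries without the suffix, r with S phase was 0.080 for Pms2 and 0.937 for Mlh3, and with mitosis 0.103 and 0.882, and Mlh3 passed adjustment with both lists. For Pms2 and mitosis r was 0.091 without the 2 farthest libraries, and for Msh3 and mitosis it was 0.267 without the 3 libraries. Except where given, the cause was not tested. The least counted members, Pms1 and Exo1, have the widest intervals.

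Same-numbered libraries had correlations of their deviations from -0.298 to 0.454, and 1 of the 6 wild type libraries correlated best with its own number. No pairing by number was thus seen, though such correlations cannot exclude one. With the replicate number as a block, 0 genes passed the threshold and 1706 were at an unadjusted p under 0.05, Exo1 turned to 0.083, and Msh6 was 0.47 with an adjusted p of 0.338 (edgeR).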
